A study of Homo sapiens with 24 samples.

Results

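The 6 libraries described here measure how gene expression changed between day 0 and day 5 in diffuse midline glioma (DMG) cells treated with LLY-283, out of 24 libraries in the series. They were chosen by their labels, with 3 libraries labelled LLY-283 at day 0 and 3 labelled LLY-283 at day 5. All are from HSJD-DIPG-007, an established patient-derived DMG cell line grown as spheroids, with the label genotype H3F3A K27M, ACVR1 R206H and PIK3CA MIS. LLY-283 was given as a single dose at its GI40, the concentration that inhibits growth by 40%, on the day after the cells were seeded. Day 0 stands for 0 days of treatment. Vehicle (DMSO) libraries of the same days, 3 at day 0 and 3 at day 5, carry the same genotype and culture time without the inhibitor. The line comes from 1 tumour, and the study calls the 3 libraries of each group technical repeats, so that p-values measure only the spread between these libraries.

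PRMT5 is an arginine methyltransferase that works in a complex with WDR77 and places symmetric dimethyl marks on its targets. Among these are the Sm proteins, which form the core of the spliceosomal small nuclear ribonucleoproteins, and histone tails. LLY-283 occupies the pocket of PRMT5 that binds the methyl donor S-adenosylmethionine. DMG is a childhood tumour of the brainstem and other midline structures, whose cells share many genes with oligodendrocyte precursors.

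The question of the comparison is what changed over 5 days in the treated cultures, and which of these changes differed from those of untreated cultures over the same days. The totals of the 6 libraries lay between 17339741 and 20344262 counts, and those of the 12 libraries with vehicle between 13835205 and 20405208. The spread of a gene between the libraries of a group, beyond counting noise, was typically 2.69% (coefficient of variation) at LLY-283 day 0. At LLY-283 day 5 it was 3.70%. Counting noise comes on top and is largest for genes of few counts. No pair of libraries within a group was alike within sampling noise. The sample numbers in the labels run from 40 to 42 at LLY-283 day 0 and from 4 to 6 at LLY-283 day 5. At days 1 to 3, both treatments together, they run on from 43 to 48. What these numbers mark is not given. Between day 0 and day 5, whatever goes with them cannot be told apart from the day. Levels are given as CPM, counts scaled to a common library size, with TMM scaling over the 18 libraries of days 0 to 5. A change is the log2 ratio of day 5 to day 0 from edgeR's quasi-likelihood test, with its standard error (SE), and a gene was called at a Benjamini-Hochberg adjusted p under 0.01.

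Genes that mark DMG cells were present on both days. OLIG2 was at 301 CPM at day 0 and 333 CPM at day 5, and SOX2 at 289 and 442 CPM. PDGFRA, OLIG1 and NES were also present, whereas SOX10 stayed at 0.12 and 0.196 CPM, near the limit of detection. The label is thus borne out by 5 of its 6 markers. Since these are bulk samples, fewer cells of a type and less RNA per cell cannot be told apart.

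Of 17341 genes tested, 7353 (42.4%) were called between LLY-283 day 0 and day 5, with 3974 (22.9%) higher and 3379 (19.5%) lower at day 5. Most of the called changes were small, with a median of 0.40 among the genes called higher and -0.38 among those called lower. At least 2-fold changes were called for 464 genes (2.68%) upward and 352 genes (2.03%) downward. The median over all genes was 0.01, and 90% of genes lay between -0.77 and 0.83. The values of the 3 day 5 libraries lay wholly above or below those of day 0 for 9959 genes (57.4%), 7320 of which were called.

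MAOB and KCNJ10, both known from glia, had the largest increases of the genes that the naming rule took. MAOB (chrX:43766610-43882450, minus strand, GRCh38), the monoamine oxidase that breaks down dopamine and is abundant in astrocytes, was at 0.693, 0.846 and 0.696 CPM in the day 0 libraries and at 28.3, 30.1 and 23.8 CPM at day 5. This was a log2 change of 5.19 ± 0.15 (SE, adjusted p = 6.61e-19). KCNJ10 (chr1:159998651-160070160, minus strand), the inward rectifier potassium channel of glia, was at 2.18, 1.58 and 1.59 CPM at day 0 and at 49.7, 53.4 and 47.7 CPM at day 5, a change of 4.80 ± 0.10 (SE, adjusted p = 1.56e-21). BCL6 (chr3:187721377-187745725, minus strand), a transcriptional repressor, was at 15.5, 15.6 and 16.2 CPM and rose to 117, 134 and 127 CPM, a change of 2.99 ± 0.06 (SE, adjusted p = 2.54e-21). In all 3 genes no library overlapped between the groups, which the naming rule required.

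The other 7 of the 10 largest increases ranged from 2.83 to 3.65 on the log2 scale. SLC25A18, a mitochondrial glutamate carrier, went from a mean of 3.55 to 34.3 CPM. The imprinted long non-coding RNA H19 went from 7.43 to 70.3 CPM. H19 is the host of MIR675, with which its reads overlap on the same strand. The chemokine CCL2 went from 2.36 to 25.7 CPM, and RPE65, an enzyme of the visual cycle, from 3.86 to 29.7 CPM. MYBPC2, a myosin-binding protein, RANBP3L and the RNA nucleotidyltransferase TENT5B completed the group, all starting under 3 CPM.

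Among the genes that the naming rule took, with at least 10 CPM in the higher group, ECM1, MAP3K4-AS1 and IGFBP3 had the largest decreases. ECM1 (chr1:150508062-150513789, plus strand), a secreted extracellular matrix protein, was at 47.7, 44.4 and 45.8 CPM at day 0 and 5.05, 5.34 and 6.22 CPM at day 5, a log2 change of -3.05 ± 0.08 (SE, adjusted p = 5.29e-20). VGF (chr7:101162509-101165569, minus strand), a neuropeptide precursor of secretory granules, fell from 569, 579 and 543 CPM to 105, 95.9 and 115 CPM, a change of -2.43 ± 0.06 (SE, adjusted p = 1.83e-11). IGFBP3, which binds insulin-like growth factors, was at 54.8, 51.4 and 50.2 CPM at day 0 and at 7.17, 5.82 and 8.07 CPM at day 5, a change of -2.89 ± 0.08 (SE, adjusted p = 9.4e-19). The groups of these 3 genes did not overlap, which the naming rule required.

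SCG2, another granin of secretory granules, fell from a mean of 55.2 to 10.95 CPM, and the semaphorin co-receptor NRP2 from 47.4 to 9.31 CPM. The receptors F2RL3, activated by thrombin, and VIPR1, for vasoactive intestinal peptide, fell by 2.02 and 1.98 on the log2 scale. KLF2, a zinc finger transcription factor, fell from 53.1 to 10.9 CPM. The antisense RNA MAP3K4-AS1 and the mitochondrial phenylalanine tRNA MT-TF were the other 2 of the 10. How the authors' counting used strand is not given in the sources used here, so reads of MAP3K4-AS1 and of MAP3K4, which overlaps it on the other strand, may not be told apart. The same holds for SLC25A18, BCL6, NRP2 and VIPR1, and, among other named genes, for KIF20A, MVK, LPCAT3, SREBF1, PDK1, BNIP3L, IFIT2, NDRG2, MYRF, DLL1, COL9A1, ITGA10, PHLDA1, DUSP6, THY1 and MYC.

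**Figure D1:**
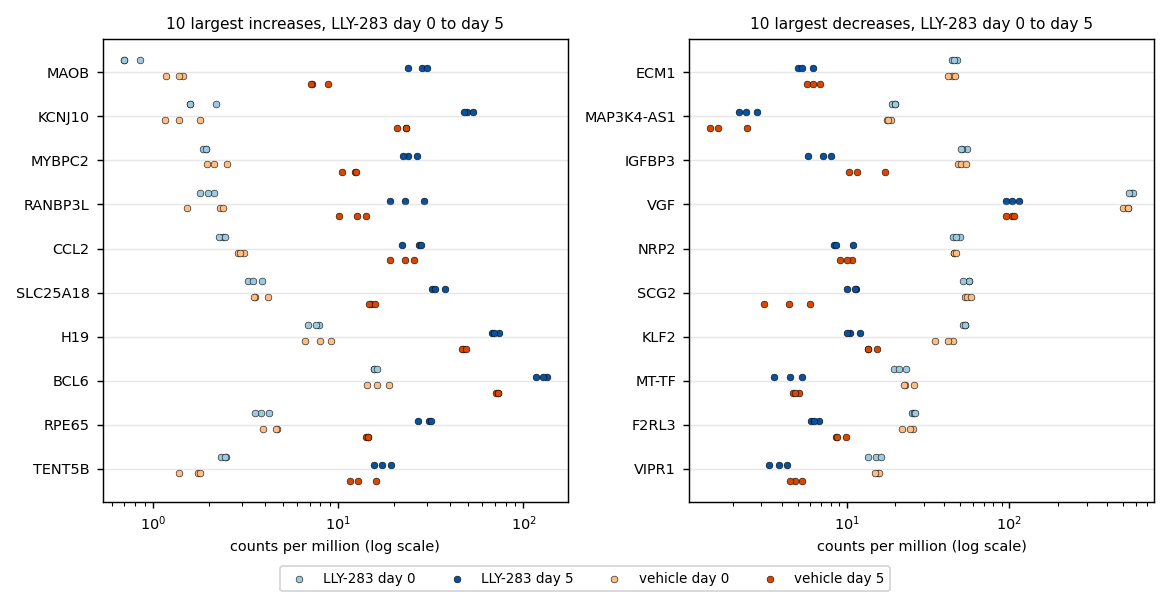
Each point is 1 library, on a log axis in CPM, for the 10 genes of largest increase (left) and largest decrease (right) between LLY-283 day 0 (light blue) and day 5 (dark blue), with vehicle in orange. In every row the dark blue points stand apart from the light blue ones, which the rule that picked the genes required. The vehicle points of day 5 lie on the same side of day 0.

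All 20 of these genes were also called in the same direction in vehicle, where 6652 of 17106 genes (38.9%) were called, 3799 (22.2%) higher and 2853 (16.7%) lower. The share of higher genes among the vehicle calls was 57.1%, and 46.2% when libraries were scaled by library size alone. Of the 16727 genes tested throughout, 7303 were called with LLY-283 and 6620 in vehicle. Both were called in the same direction for 4255 genes, which is 58.3% of the LLY-283 calls and 64.3% of the vehicle calls, and in opposite directions for 190. Across genes, the changes had a Pearson correlation of 0.65, given as a description because genes are not independent replicates. The groups at day 0 were separate libraries for LLY-283 and vehicle.

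The difference between the changes was tested directly, as the change with LLY-283 less that in vehicle. Of 18369 genes, 2742 (14.9%) were called, 1245 (6.78%) with a positive and 1497 (8.15%) with a negative difference. The positive share of these calls was 45.4%, but 54.4% with library size alone, 38.5% with DESeq2's size factors and 36.0% with DESeq2. Among the genes tested throughout, 1983 of the LLY-283 calls (27.2%) were also called for the difference. For 978 genes called for the difference the change was in the same direction and larger with LLY-283, and for 512 it was in the same direction and smaller. For 1245 the signs were opposite, but both changes were called for only 190 of these. The difference also went with expression level. Protein-coding genes under 1 CPM had a median change of -0.36 in vehicle and -0.03 with LLY-283, and those of 5 CPM or more had medians of 0.06 and 0.02. The vehicle libraries of day 5 had the lowest totals of the 12, and the part of depth in this was not tested.

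Among the 10 largest increases, the difference was called for 7, MAOB, KCNJ10, MYBPC2, SLC25A18, H19, BCL6 and RPE65, each with the larger rise under LLY-283. The call of KCNJ10 was lost without LLY-283 day 0 repeat 2 or 3 or without vehicle day 0 repeat 2. MAOB had the largest difference, 2.70 ± 0.27 (SE, adjusted p = 4.92e-08). CCL2, RANBP3L and TENT5B were not called. Among the 10 largest decreases, 3 were called. SCG2 fell by less with LLY-283 than in vehicle, by 1.30 ± 0.15 (SE, adjusted p = 7.11e-07). F2RL3 and KLF2 fell by more, with differences of -0.59 and -0.72 on the log2 scale. KLF2 was higher in LLY-283 than in vehicle at day 0, at 53.1 and 40.8 CPM, and lower at day 5, at 10.9 and 14.1 CPM. Its negative difference thus includes a gap at day 0, which was not tested.

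**Figure D2:**
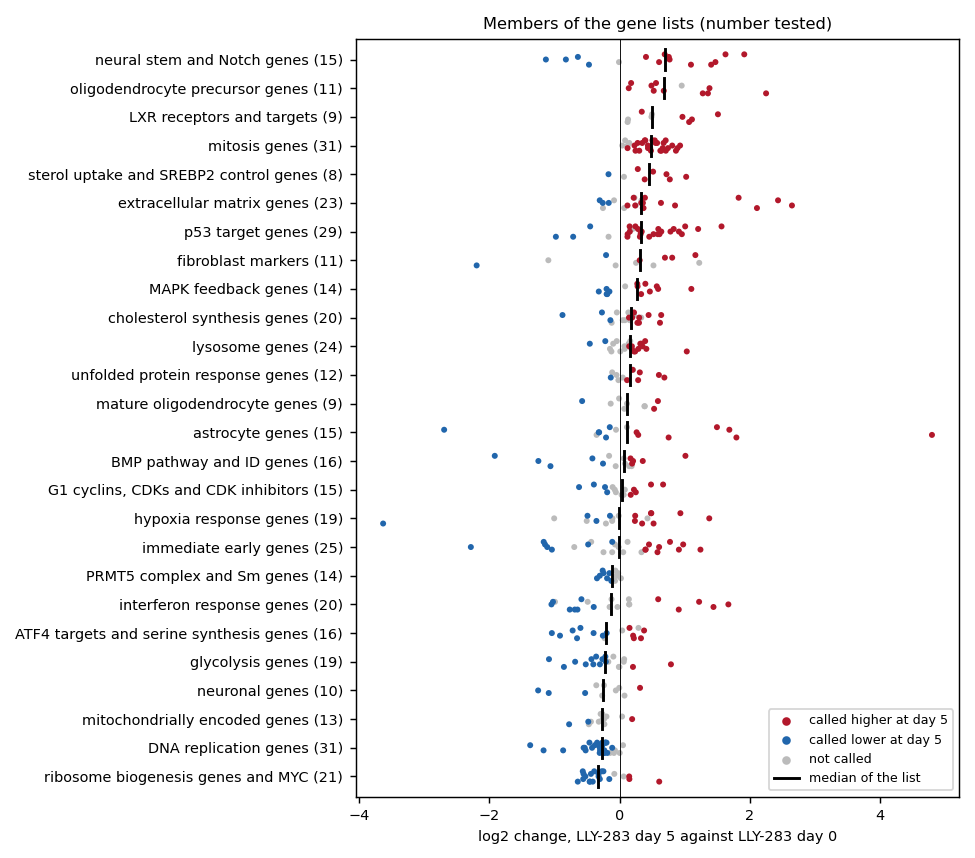
Each point is a gene of a list (number of genes tested in brackets), placed by its log2 change from LLY-283 day 0 to day 5, in red where called higher, blue where called lower and grey where not called, with the median of the list as a black bar. Mitosis genes lie to the right of 0 and DNA replication genes almost all to the left, and most other lists hold members on both sides.

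Genes of DNA replication and of mitosis moved in opposite directions over the 5 days with LLY-283. Counts for this and the other lists are to be read beside the shares of all genes. With LLY-283, 22.9% of all genes were called higher and 19.5% lower. In vehicle the shares were 22.2% and 16.7%. For the difference they were 6.78% positive and 8.15% negative. Of 31 genes of DNA replication, 26 fell and 0 rose, with a median of -0.27 against 0.01 over all genes. Of 31 genes of mitosis, 27 rose and 0 fell, with a median of 0.48. DESeq2 called 24 replication genes lower and 25 mitosis genes higher, and no replication gene was higher and no mitosis gene lower at an unadjusted p under 0.05 with edgeR. RRM2, the regulatory subunit of ribonucleotide reductase, which makes deoxynucleotides, fell from 249, 242 and 244 CPM to 139.7, 136 and 129 CPM, a log2 change of -0.87 ± 0.03 (SE, adjusted p = 2.75e-16). KIF20A, a motor protein of cell division, rose from 35.9, 37.6 and 36.1 CPM to 70, 69.5 and 69.9 CPM, a change of 0.93 ± 0.04 (SE, adjusted p = 1.17e-14). Neither gene had overlapping groups, as was so for 7320 of the 7353 called genes.

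The largest decreases in replication were in GINS4, a subunit of the replicative helicase, at 104 CPM on day 0 and 40.3 CPM on day 5 (log2 change -1.37 ± 0.05 SE, adjusted p = 1.28e-17). CCNE2, a cyclin of the start of S phase, went from 45.1 to 20.2 CPM. Reads of GINS4 and CCNE2 overlap genes of the other strand. Of the 6 MCM helicase subunits MCM2 to MCM7, 5 fell, and MCM3 was not called with a change of -0.07 on the log2 scale. RRM1, UHRF1, DUT and CCNE1 were the other members that were not called. In mitosis, the spindle genes DLGAP5 and ASPM rose by 0.89 and 0.87 on the log2 scale. CCNA2, CDK1, NDC80 and UBE2C did not pass the test.

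Both lists had a negative difference from vehicle. In vehicle, all 31 mitosis genes rose, with a median of 0.77, and 24 of 31 were called for the difference, all negative. For DNA replication, 11 genes rose and 4 fell in vehicle, with a median of 0.06, and with library size alone 10 rose and 8 fell. For the difference, 25 of 31 were called, all negative. RRM2 was at 231, 243 and 251 CPM in vehicle at day 0 and at 236, 224 and 239 CPM at day 5, where the groups overlapped, and its difference was -0.78 ± 0.05 (SE, adjusted p = 3.93e-11). KIF20A rose by more in vehicle, to 85.7 CPM, with a difference of -0.28 ± 0.06 (SE, adjusted p = 0.00145). Without vehicle day 5 repeat 3, the difference was called for 22 replication and 21 mitosis genes, again all negative.

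**Figure D3:**
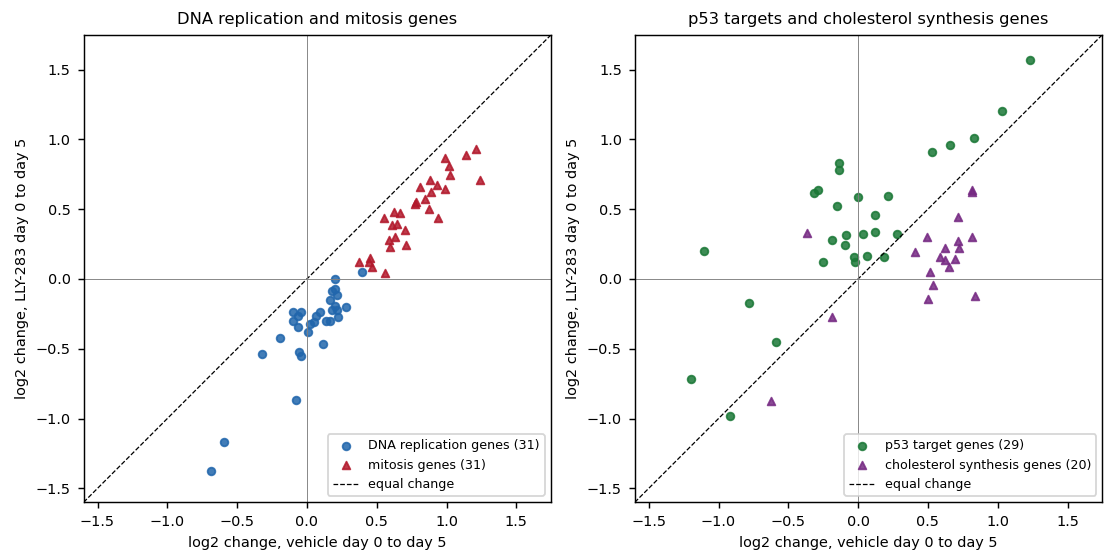
Each point is a gene, placed by its log2 change from day 0 to day 5 in vehicle (x axis) and with LLY-283 (y axis), and the dashed line marks an equal change. All mitosis and DNA replication genes lie below the line (left), as do most cholesterol synthesis genes, whereas most p53 target genes lie above it (right).

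The promoters of these lists hold different short motifs. E2F factors drive genes of the start of S phase, and the cell cycle genes homology region (CHR) is a short element of promoters active in G2 and mitosis. The 250 bases before the start of each gene (RefSeq, GRCh38.p14) were searched on both strands, for 26 of the 31 replication genes and 25 of the 31 mitosis genes that were in the table. An E2F site, as TTTCCCGC or TTTGGCGC, was in 11 of 26 replication promoters (42.3%), in 0 of 25 mitosis promoters and in 1.96% of 27303 promoters. The CHR letters TTTGAA were in 14 of 25 mitosis promoters (56%), in 1 of 26 replication promoters (3.85%) and in 13.6% of all promoters. The CCAAT letters, which often stand near a CHR, were in 80% of the mitosis, 57.7% of the replication and 33.0% of all promoters. These matches describe the letters of the windows and are no evidence of binding. The windows of 3 called members of each list that held the motif follow, 5′ to 3′ on the strand of the gene. The motif is in capitals on either strand. Not every member of a list was eligible to be shown, so these need not be the largest changes among members with the motif. POLA1, E2F1 and PCNA, at chrX:24693668-24693917 (plus), chr20:33686386-33686635 (minus) and chr20:5126623-5126872 (minus), show E2F sites. DLGAP5, ASPM and HMMR, at chr14:55191586-55191835 (minus), chr1:197146670-197146919 (minus) and chr5:163460382-163460631 (plus), show CHR letters.
POLA1: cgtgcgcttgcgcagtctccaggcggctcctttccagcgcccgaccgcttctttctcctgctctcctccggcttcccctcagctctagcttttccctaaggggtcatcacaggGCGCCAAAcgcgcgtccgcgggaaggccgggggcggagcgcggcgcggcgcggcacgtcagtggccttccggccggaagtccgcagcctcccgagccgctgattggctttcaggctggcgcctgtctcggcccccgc
E2F1: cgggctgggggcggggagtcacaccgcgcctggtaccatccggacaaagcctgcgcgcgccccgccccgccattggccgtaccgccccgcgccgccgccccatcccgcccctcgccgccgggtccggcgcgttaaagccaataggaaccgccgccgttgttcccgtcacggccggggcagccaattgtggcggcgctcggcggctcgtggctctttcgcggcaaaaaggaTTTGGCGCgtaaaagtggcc
PCNA: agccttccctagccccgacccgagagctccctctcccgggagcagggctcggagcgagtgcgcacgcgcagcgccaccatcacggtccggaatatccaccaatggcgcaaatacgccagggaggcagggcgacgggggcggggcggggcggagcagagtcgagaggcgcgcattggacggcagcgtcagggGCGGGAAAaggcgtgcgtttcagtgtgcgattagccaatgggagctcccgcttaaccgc
DLGAP5: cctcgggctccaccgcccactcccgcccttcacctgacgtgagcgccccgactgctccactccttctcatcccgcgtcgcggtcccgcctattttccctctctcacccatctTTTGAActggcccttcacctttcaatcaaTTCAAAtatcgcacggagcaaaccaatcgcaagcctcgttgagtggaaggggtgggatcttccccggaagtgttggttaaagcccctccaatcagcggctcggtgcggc
ASPM: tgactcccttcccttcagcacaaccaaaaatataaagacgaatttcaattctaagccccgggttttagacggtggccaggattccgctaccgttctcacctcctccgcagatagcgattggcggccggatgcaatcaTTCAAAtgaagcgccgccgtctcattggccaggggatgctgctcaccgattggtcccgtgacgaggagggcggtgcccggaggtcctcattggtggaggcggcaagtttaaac
HMMR: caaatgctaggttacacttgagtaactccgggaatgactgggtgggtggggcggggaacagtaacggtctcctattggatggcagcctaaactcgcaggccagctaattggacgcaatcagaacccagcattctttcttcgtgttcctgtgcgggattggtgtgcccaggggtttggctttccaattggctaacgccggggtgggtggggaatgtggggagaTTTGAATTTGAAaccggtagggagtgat

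The genes whose promoters are shown were chosen among called members, which all fell for replication and all rose for mitosis. Their direction was thus fixed by the choice. POLA1, a subunit of the primase complex that starts DNA strands, went from 118, 112 and 118 CPM to 89.4, 84.1 and 80.3 CPM, a log2 change of -0.46 ± 0.04 (SE, adjusted p = 5.2e-10). E2F1 and the sliding clamp PCNA fell by 0.42 and 0.35 on the log2 scale. HMMR, a spindle protein, rose from 20.2, 21.1 and 21.2 CPM to 36.6, 35.8 and 37.3 CPM (log2 change 0.81 ± 0.06 SE, adjusted p = 1.34e-11). The day 0 and day 5 libraries of POLA1 and HMMR did not overlap, as was so for 7320 of the 7353 called genes.

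Cyclins, kinases and inhibitors of the G1 phase were mixed, with 5 of 15 rising, 4 falling and a median of 0.03. The inhibitor CDKN2B rose from 7.86 to 12.6 CPM and RBL2, a relative of the retinoblastoma protein, from 39.6 to 55.5 CPM, while RBL1 fell from 56.5 to 36.9 CPM. CDK4 fell by 0.40 on the log2 scale. For the difference from vehicle, 2 of the 15 were called positive and 5 negative. The negative calls were 2 with library size alone or with the replicate block, and 3 with DESeq2, without a filter on low counts or without vehicle day 5 repeat 3. CCND1 (positive), CDK2 and CDK4 (negative) were called under every alternative, whereas CDKN2B, CCND3, RB1 and RBL1 were not.

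Targets of p53 rose in most cases. p53 is a transcription factor that answers DNA damage and other stress by inducing genes of cell cycle arrest, DNA repair and cell death. Of 29 target genes tested, 23 rose and 3 fell, with a median of 0.32. BTG2 (chr1:203305491-203309602, plus strand), an antiproliferative gene, rose from 116, 114 and 119 CPM to 349, 347 and 341 CPM, a log2 change of 1.57 ± 0.03 (SE, adjusted p = 1.57e-21). The stress cytokine GDF15 went from 5.39 to 12.4 CPM and the cyclin CCNG1 from 40.5 to 82.1 CPM.

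The 3 members that fell were CDKN1A, TP53I3 and FAS, named, like DDB2 and the further members given by name in other lists, after their values were seen. CDKN1A encodes p21, the inhibitor of cyclin-dependent kinases, and went from 391, 381 and 380.5 CPM to 242, 236 and 227 CPM, a change of -0.71 ± 0.03 (SE, adjusted p = 3.12e-15). It fell further in vehicle, to 167 CPM, so that its difference was positive at 0.49 ± 0.05 (SE, adjusted p = 4.24e-08). The list as a whole stood at a median of -0.03 in vehicle, with 8 genes higher and 8 lower, and 18 of 29 members were called for the difference, all positive. DDB2, which recognises DNA damaged by ultraviolet light, rose from 50.5, 54.7 and 53.6 CPM to 89.05, 100.1 and 93.9 CPM, and was at 53.6, 48.6 and 50.6 and then 46.4, 48.9 and 46.3 CPM in vehicle. Its difference was 0.98 ± 0.07 (SE, adjusted p = 1.88e-10).

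**Figure D4:**
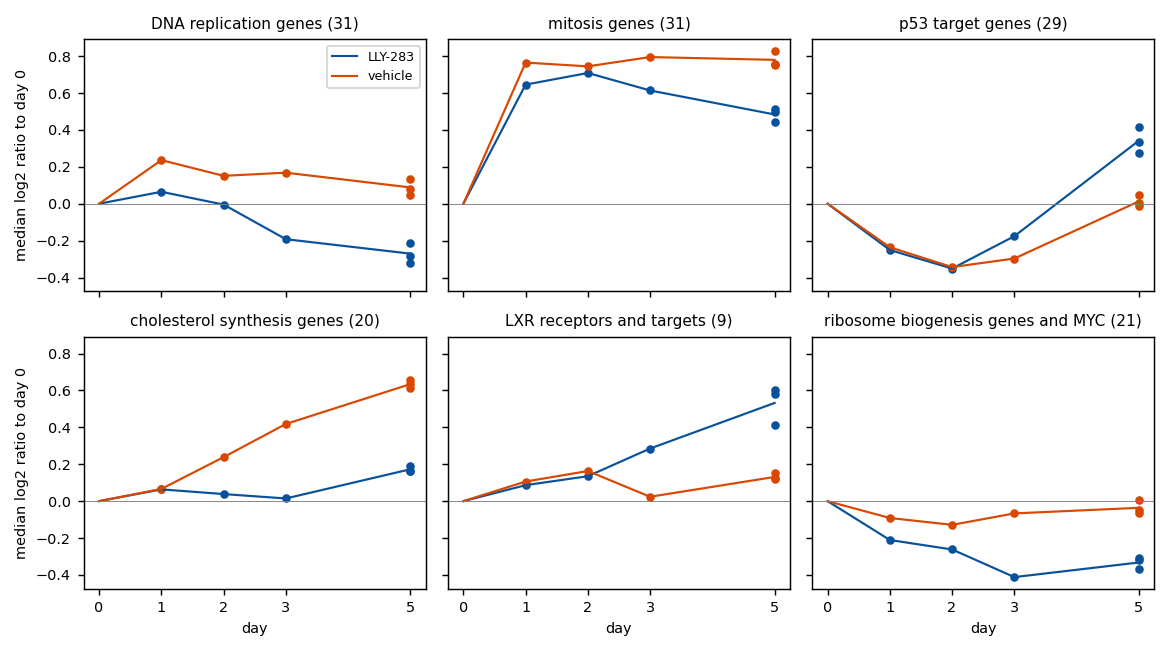
Lines show the median over the genes of a list (number in brackets) of the log2 ratio of the CPM to the mean of day 0, with 0.5 CPM added to both, by day and for LLY-283 (blue) and vehicle (orange), and each point is 1 library. Mitosis genes were already up at day 1 in both treatments, and the lines of the 2 treatments stand furthest apart at day 5 for the p53 target, LXR and cholesterol synthesis lists.

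The days between were measured with 1 library per treatment and have no replicate check. Their sample numbers run on from those of day 0, so a step from day 3 to day 5 also crosses a break in these numbers. The median of the mitosis list with LLY-283 stood above day 0 by 0.65, 0.71 and 0.61 at days 1, 2 and 3. That of the p53 targets was at -0.25, -0.35 and -0.18, before its median of 0.27 to 0.42 in the day 5 libraries. In vehicle the p53 targets were at -0.24, -0.34 and -0.30 on days 1, 2 and 3, and at -0.01 to 0.05 at day 5. Among the 10 largest increases, 4 had passed 2-fold by day 1, 9 by day 2 and all 10 by day 3, against 4, 7 and 8 in vehicle. Among the 10 largest decreases, 8, 8 and 9 had passed 2-fold on these days, and the counts in vehicle were the same.

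Cholesterol genes rose by less with LLY-283 than in vehicle, and LXR target genes by more. Cells make cholesterol through enzymes driven by SREBP2 and export it through transporters driven by the sterol-sensing LXR receptors. Of 20 synthesis genes, 9 rose and 3 fell with LLY-283, with a median of 0.17. In vehicle, 17 rose and 2 fell, with a median of 0.62, and the difference was called negative for 12 and positive for 1, TM7SF2, which DESeq2 did not call. ACAT2 (chr6:159762045-159779112, plus strand), which joins acetyl groups at the start of the pathway, was at 67.7, 62.6 and 66.5 CPM at LLY-283 day 0 and 59.9, 63.3 and 58.6 CPM at day 5, and did not pass the test (log2 change -0.12 ± 0.04 SE, adjusted p = 0.0238). In vehicle it was at 54.9, 70.8 and 74.8 CPM and then at 123, 125 and 117 CPM, and the difference was -0.95 ± 0.13 (SE, adjusted p = 0.000489). Reads of ACAT2 overlap TCP1 and SOD2 on the other strand.

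DHCR7, which acts at the last step to cholesterol, fell from 379, 345 and 364 to 199, 203 and 193 CPM, a change of -0.88 ± 0.04 (SE, adjusted p = 2.96e-16). The mevalonate kinase MVK and HSD17B7 rose by 0.64 and 0.62 on the log2 scale. Among genes of sterol uptake and SREBP2 control, 6 of 8 rose and 1 fell, led by the feedback protein INSIG1, from 76.9 to 157 CPM. For the difference, edgeR called 0 of the 8, and 5 had an unadjusted p under 0.05. DESeq2 called 1 negative, edgeR with library size alone called 2 positive, with at least 10 counts in every library 1 positive, and without a filter on low counts 1 negative.

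Of 9 LXR receptors and targets, 5 rose and 0 fell, with a median of 0.50, against 0.09 in vehicle. ABCG1 (chr21:42199689-42297244, plus strand), a sterol exporter, rose from 51.6, 56.5 and 54.9 CPM to 156, 158 and 152 CPM, a change of 1.51 ± 0.04 (SE, adjusted p = 1.18e-19). ABCA1, the exporter to apolipoprotein particles, was at 283, 307 and 291 CPM and then 570.1, 573 and 584 CPM, a change of 0.97 ± 0.03 (SE, adjusted p = 2.41e-17). The phospholipid enzyme LPCAT3 and the lipogenic regulator SREBF1 rose by 1.11 and 1.07 on the log2 scale. Of the 9 genes, 7 were called for the difference, all positive. ABCA1 had a difference of 0.88 ± 0.09 (SE, adjusted p = 2.46e-05), with 279 CPM in vehicle at day 0 and 303 CPM at day 5.

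Most genes of ribosome assembly fell while MYC rose. Of 21 genes on this list, 16 fell and 3 rose, with a median of -0.32. RRP12, a factor of ribosome export, fell from 124, 124 and 129 CPM to 78.8, 82.03 and 81.1 CPM, a change of -0.64 ± 0.04 (SE, adjusted p = 2.21e-13), and RRP9 fell by 0.57 on the log2 scale. MYC, the transcription factor that drives many of these genes, rose from 244, 232 and 236 CPM to 366, 361 and 364 CPM, a change of 0.61 ± 0.03 (SE, adjusted p = 3.37e-14). The difference from vehicle was called for 15 of 21 genes, all negative and MYC among them at -0.20 ± 0.05 (SE, adjusted p = 0.00284). The call of MYC was lost without LLY-283 day 0 repeat 1, LLY-283 day 5 repeat 2 or vehicle day 5 repeat 1.

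The transcript of PRMT5 itself (chr14:22920525-22929408, minus strand) was at 89.2, 86.2 and 87.8 CPM at day 0 and 84.7, 83.6 and 83.4 CPM at day 5. The day 5 libraries were slightly lower and the groups did not overlap, but the change did not pass the test, at -0.07 ± 0.04 (SE, adjusted p = 0.111). Transcript level says nothing of the activity that the inhibitor blocks. Of the 14 genes of its complex, substrates and methionine metabolism, 7 fell and 0 rose, with a median of -0.12. WDR77, the partner of PRMT5, fell from 119, 117 and 123 CPM to 94.3, 95.8 and 93.2 CPM, a change of -0.35 ± 0.04 (SE, adjusted p = 1.09e-08). MTAP, of the methionine salvage pathway, and SNRPE, a core Sm protein, fell by 0.30 and 0.26 on the log2 scale. In vehicle 9 of the 14 rose and 0 fell, but 3 rose with library size alone. Of the 14, 11 were called for the difference, all negative. Reads of WDR77 overlap ATP5PB on the other strand, and those of PRMT5 overlap an antisense gene.

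Most glycolysis genes fell, with 11 of 19 lower and 2 higher and a median of -0.22. PDK1, a kinase that inhibits pyruvate dehydrogenase, fell from 19.6, 18.95 and 20.7 CPM to 9.99, 9.33 and 8.79 CPM, a change of -1.09 ± 0.08 (SE, adjusted p = 5.24e-11). Of the glucose transporters, SLC2A1 fell by 0.86 whereas SLC2A3 rose by 0.79 on the log2 scale. The difference was called for 9 of 19, all negative. Hypoxia response genes were split, with 8 of 19 higher and 4 lower, beside 22.9% and 19.5% of all genes. NDRG1 fell from 7.57, 6.09 and 6.76 CPM to 0.411, 0.701 and 0.514 CPM (log2 change -3.63 ± 0.22 SE, adjusted p = 5.43e-13), while DDIT4, an inhibitor of mTORC1 signalling, rose from 103 to 268 CPM, and BNIP3L, a mitophagy receptor, from 18.9 to 36.2 CPM. None of these 3 was called for the difference.

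Among ATF4 targets and serine synthesis genes, 8 of 16 fell and 5 rose, with a median of -0.21. The transcription factors ATF5 and DDIT3 fell by 1.04 and 0.92 on the log2 scale, and SLC7A11, the cystine importer, from 23.8 to 14.5 CPM. The serine enzymes PSAT1, PHGDH, PSPH and SHMT2 were among those that rose. Reads of ATF5 and DDIT3 overlap genes of the other strand. The difference was called for 8 of 16, all negative. Of 12 genes of the unfolded protein response, 6 rose and 1 fell, with DNAJB9, a chaperone partner, at 0.69 and the transcription factor XBP1 at 0.60 on the log2 scale. The median of the difference was -0.18, with 5 genes called negative.

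Genes of oligodendrocyte precursors rose together. Of 15 genes on the list, 4 were under 1 CPM in all 6 libraries. Of 11 tested, 10 rose and 0 fell, with a median of 0.68. PDGFRA (chr4:54229280-54298245, plus strand), the growth factor receptor of these cells, rose from 80.3, 80.3 and 86.4 CPM to 216, 214 and 205 CPM, a change of 1.36 ± 0.04 (SE, adjusted p = 3.12e-19), and its reads overlap an unnamed gene on the same strand. SOX8 rose from 17.7 to 46.3 CPM. The same list had 10 of 11 genes higher in vehicle, with a median of 0.50. The difference was called positive for 5, PDGFRA, SOX6, PTPRZ1 and BCAN among them, and negative for OLIG2. The calls of SOX6, BCAN and OLIG2 were lost under at least 4 of 18 alternatives each, that of OLIG2 without vehicle day 5 repeat 3.

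Neural stem and Notch genes rose in 10 of 15 cases and fell in 4, with a median of 0.69. The receptor NOTCH3 rose from 85.7, 90.8 and 89.8 CPM to 266, 283 and 276 CPM, a change of 1.63 ± 0.04 (SE, adjusted p = 6.16e-21). The ligand DLL1 and the HES family gene HES6 rose by 1.92 and 1.47 on the log2 scale. The intermediate filaments NES and VIM, the Notch target HEY1 and the Notch modifier LFNG were the 4 that fell. In vehicle, too, 10 of the 15 rose and 4 fell, with a median of 0.62. For the difference, 2 of the 15 were called positive and 1 negative. NOTCH3 was not called for the difference from vehicle, at -0.04 ± 0.05 (SE, adjusted p = 0.662), while DLL1 had a difference of 1.02 ± 0.17 (SE, adjusted p = 5.57e-05).

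Astrocyte genes did not move as a group, with 7 of 15 higher, 5 lower and a median of 0.11. Beside KCNJ10, the receptor FGFR3 rose from 1.99 to 6.49 CPM and NDRG2 from 3.55 to 10.1 CPM. GFAP, an intermediate filament of astrocytes, was at 1.07 CPM at day 0 and 3.75 CPM at day 5, and AQP4 was at 0 in these libraries. The members that fell were S100B, SLC1A3, GJA1, CLU and CD44. For the difference, edgeR called 5, all positive, namely KCNJ10, NDRG2, CLU, SPARCL1 and AGT. DESeq2 called 4 positive and 1 negative on this list, and NDRG2 was not called.

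Mature oligodendrocyte genes were mostly low, with 9 of 16 tested, 2 higher and 1 lower. MYRF, the transcription factor of myelination, rose by 0.59, and GALC fell by 0.58 on the log2 scale. Of 15 neuronal genes, 5 were under 1 CPM in all 6 libraries. Of the 10 tested, 3 fell and 1 rose with LLY-283, beside 19.5% and 22.9% of all genes. TUBB3, a neuronal tubulin, fell from 119 to 50.04 CPM and GAP43, of growth cones, from 191 to 133 CPM, while ELAVL4 was at 15.7 and 19.6 CPM and was not called with DESeq2. Reads of TUBB3 overlap another gene on its strand. In vehicle, 7 of 10 neuronal genes fell and 0 rose, with a median of -0.51, against -0.25 with LLY-283. For the difference, 4 were called positive and 1 negative, and DESeq2 called 2 positive and 1 negative.

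Extracellular matrix genes rose in 14 of 23 cases and fell in 3, with a median of 0.33. MATN2, a matrilin of the pericellular matrix, was at 11.6, 10.2 and 11.9 CPM at day 0 and 72.4, 71.8 and 68.9 CPM at day 5, a change of 2.65 ± 0.06 (SE, adjusted p = 6.16e-21). COL9A1 (chr6:70216040-70303084, minus strand), a chain of collagen IX, was at 4.26, 4.74 and 4.22 CPM and then 17.6, 19.1 and 20.4 CPM, a change of 2.11 ± 0.10 (SE, adjusted p = 9.88e-15). The brain proteoglycan NCAN rose from 167 to 594 CPM. SPARC, VCAN and SPP1 fell. In vehicle the list had a median of 0.05, with 8 genes higher and 5 lower, and 9 of 23 were called for the difference, all positive. The same count was found without vehicle day 5 repeat 3.

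Among called genes of at least 10 CPM in 1 of the 4 groups, MAOB, TLL1, COL9A1, POSTN, ITGA10 and MATN2 had the largest positive differences from vehicle. TLL1, a metalloproteinase that processes collagens, was at 3.81, 3.61 and 4.12 CPM at LLY-283 day 0 and 22.7, 18.8 and 17.3 CPM at day 5, while the vehicle libraries of day 5 were at 4.901, 5.27 and 6.11 CPM. Its difference was 2.02 ± 0.19 (SE, adjusted p = 8.94e-09). COL9A1 had a difference of 1.91 ± 0.18 (SE, adjusted p = 1.99e-08) and MATN2 of 1.57 ± 0.10 (SE, adjusted p = 1.42e-11).

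POSTN, a matrix protein that binds integrins, and the collagen receptor ITGA10 rose slightly with LLY-283 and fell in vehicle. POSTN was at 62.9, 58.99 and 60.7 CPM at LLY-283 day 0 and 81.2, 75.8 and 70.6 CPM at day 5, a change of 0.31 ± 0.05 (SE, adjusted p = 6.14e-06). In vehicle it went from 58.7, 57.6 and 59.4 CPM to 20.5, 20.9 and 29.6 CPM, and the difference was 1.66 ± 0.14 (SE, adjusted p = 1.36e-05). ITGA10 was at 13.5, 15.3 and 16.7 CPM at LLY-283 day 5 and at 5.84, 5.46 and 4.99 CPM at vehicle day 5, with a difference of 1.59 ± 0.17 (SE, adjusted p = 1.64e-07).

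On the negative side, the neurotrophin receptor NGFR fell slightly with LLY-283, from 30.7, 30.6 and 30.4 CPM to 24.2, 25.99 and 26.2 CPM, and rose in vehicle from 30.9, 33.2 and 31.8 CPM to 51.3, 56.6 and 49.6 CPM. Its difference was -0.95 ± 0.08 (SE, adjusted p = 2.01e-09). VASH2, an enzyme that removes tyrosine from tubulin, fell to 4.84 CPM with LLY-283 and rose to 10.4 CPM in vehicle, with a difference of -1.03 on the log2 scale. The metallothionein MT1X and the zinc finger gene ZSCAN5A fell in both treatments and by more with LLY-283, with differences of -0.89 and -0.89 on the log2 scale. ZIK1, another zinc finger gene, had a difference of -0.81 on the log2 scale. MT1X belongs to a family of near-identical genes among which reads can be split, and reads of NGFR, ZSCAN5A and ZIK1 overlap genes of the other strand.

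**Figure D5:**
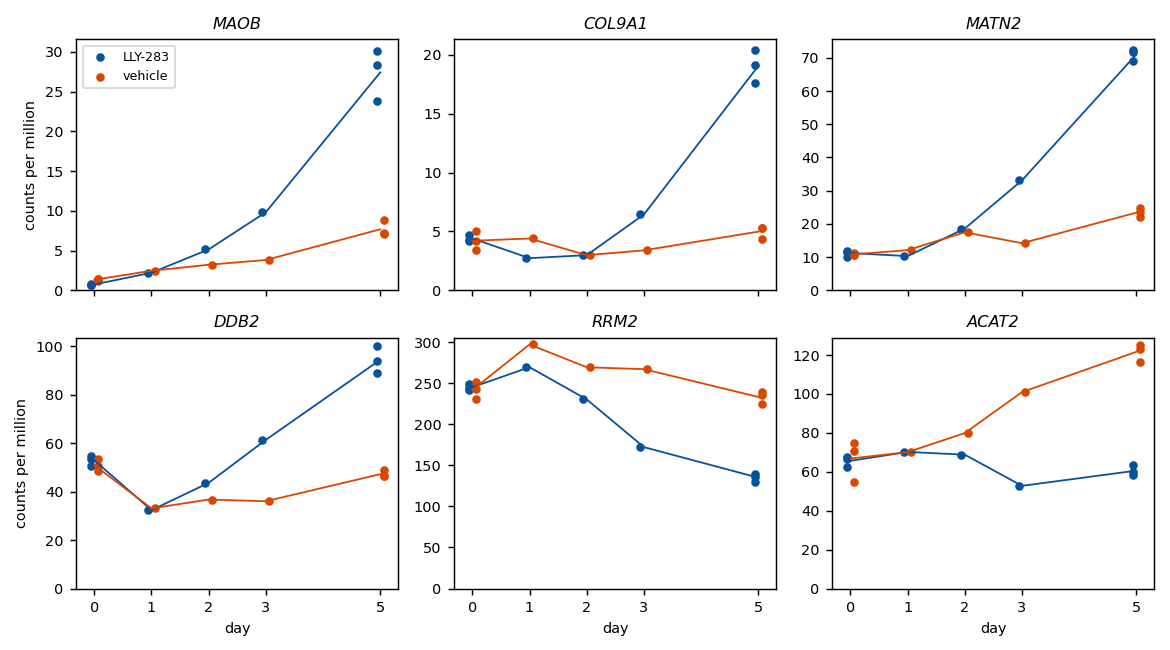
CPM of 6 genes by day, with each point 1 library and lines through the means, for LLY-283 (blue) and vehicle (orange), where days 1, 2 and 3 have 1 library per treatment. MAOB, COL9A1, MATN2 and DDB2 reach their highest values in the LLY-283 libraries of day 5, RRM2 its lowest, and ACAT2 rises in vehicle alone.

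MAOB was at 2.22, 5.16 and 9.83 CPM with LLY-283 at days 1, 2 and 3, and at 2.47, 3.22 and 3.82 CPM in vehicle. MATN2 was at 10.3, 18.6 and 33.1 CPM with LLY-283 on these days and at 12.1, 17.5 and 14.2 CPM in vehicle. RRM2 was at 269, 230.2 and 172 CPM with LLY-283 and at 297, 269 and 267 CPM in vehicle. The single libraries of days 1 to 3 carry no error of their own.

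Immediate early genes, which answer growth signals within minutes, showed no common direction, with 9 of 25 higher and 7 lower and a median of -0.02. KLF2 and KLF6 fell, KLF6 from 161, 148 and 157 CPM to 69.3, 71.7 and 67.4 CPM (log2 change -1.17 ± 0.04 SE, adjusted p = 1.16e-17), whereas ZFP36, which destabilises cytokine messengers, rose by 1.24 on the log2 scale. KLF6 was higher in LLY-283 than in vehicle at day 0, at 155 and 129.8 CPM, and lower at day 5, at 69.5 and 81.4 CPM. Its difference of -0.46 on the log2 scale thus includes a gap at day 0. The summed level of the list was 1031 to 1084 CPM at LLY-283 day 0 and 917 to 989 CPM at vehicle day 0. These gaps at day 0 were not tested. Feedback genes of MAPK signalling had 8 of 14 higher and 5 lower, with a median of 0.27. PHLDA1 rose from 297, 269 and 282 CPM to 637, 596 and 596 CPM, a change of 1.10 ± 0.04 (SE, adjusted p = 1.83e-17). The phosphatase DUSP6 and the inhibitor SPRY1 rose by 0.59 and 0.57 on the log2 scale, and neither was called for the difference.

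Interferon response genes were split, with 5 of 20 higher and 7 lower, beside 22.9% and 19.5% of all genes. IFIT2, an antiviral protein, rose from 43, 37.8 and 41.3 CPM to 117, 115 and 102 CPM, a change of 1.44 ± 0.06 (SE, adjusted p = 4.14e-13), and IFIT1 by 0.91, while OAS3 fell by 0.77 on the log2 scale. IFIT1 and IFIT2 were called for the difference, at 0.62 and 0.58 on the log2 scale. In the BMP pathway, which the ACVR1 receptor serves, 5 of 16 genes rose and 5 fell, beside the same shares of all genes. ID2, a target of the pathway, fell from 17.9 to 8.6 CPM, ID4 rose from 208 to 267 CPM, and the inhibitory SMAD6 fell by 0.42 on the log2 scale. DESeq2 called 2 higher and 3 lower on this list.

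Lysosome genes rose in 12 of 24 cases and fell in 2, with a median of 0.16 and the protease CTSF at 1.03 on the log2 scale. SCARB2, a membrane protein of lysosomes, rose by 0.41 on the log2 scale. Of the 13 protein genes of the mitochondrial genome, 2 fell and 1 rose. MT-ND1 was at 2447 CPM at day 0 and 1435 CPM at day 5, MT-ND2 at 4377 and 3148 CPM, and MT-ND3 rose by 0.19 on the log2 scale. All transcripts of the mitochondrial genome, with its ribosomal and transfer RNAs, made up 4.54% to 5.14% of all counts at LLY-283 day 0. At LLY-283 day 5 they made up 3.21% to 3.88%. The number of the 13 protein genes called lower was unsettled. It was 1 with library size alone, 7 with DESeq2 and 11 with the replicate block or without a filter on low counts. In vehicle all 13 fell. The difference from vehicle was called positive for 2 of the 13 and was not called for the other 11. DESeq2 called 4 positive.

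Markers of microglia and of endothelium were low. Of 11 microglia markers, 5 had 0 counts in all 6 libraries, AIF1, CX3CR1, TYROBP, C1QA and C1QB, and 9 were under 1 CPM throughout. The summed level of the list was 1.49 to 2.59 CPM at day 0 and 1.41 to 2.21 CPM at day 5. Of 10 endothelial markers, 8 were under 1 CPM, VWF and CDH5 among them, with sums of 16.0 to 17.1 CPM at day 0 and 13.6 to 15.4 CPM at day 5, and PECAM1 was at 8.44 and 6.31 CPM.

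Of 15 fibroblast markers, 11 were tested, with 4 higher and 2 lower, and 4 were under 1 CPM. Their summed level was 299.99 to 315 CPM at day 0 and 386 to 391 CPM at day 5. Most of it came from THY1, PRRX1, POSTN and LUM. THY1 rose from 106 to 172 CPM and LUM from 17.4 to 30.7 CPM, and MMP2 fell from 5.28 to 1.15 CPM. COL1A1 was at 5.84, 4.57 and 5.76 CPM at LLY-283 day 0 and at 6.41, 5.82 and 11.01 CPM at day 5, and did not pass the test. In vehicle day 5 it was at 8.67, 7.898 and 54.3 CPM, and FN1 at 2.45, 2.699 and 60.9 CPM, so that repeat 3 stood apart in both. Their part in the differences from vehicle was not tested, but without that library the difference of POSTN was 1.84 (adjusted p = 7.35e-14) and that of COL9A1 was 1.95 (adjusted p = 1.89e-07).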

How the data were processed

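RNA was measured by poly(A) RNA-seq in 24 libraries, 6 of which are the LLY-283 libraries of days 0 and 5. Per the study's methods, the authors made stranded paired-end libraries and quantified reads with kallisto against the hg38 transcriptome. The deposited table holds whole-number read counts for 58676 gene identifiers, 58207 with a symbol, with no normalization. The kallisto version, annotation release, summary to genes and use of strand are not given in the sources used here. Totals of the 12 libraries of days 0 and 5 ranged from 13835205 to 20405208 counts.

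Changes were tested in R 4.3.3 with edgeR 4.0.16 (filterByExpr, TMM scaling, quasi-likelihood test, two-sided), separately for the 6 LLY-283 and the 6 vehicle libraries, and the difference of the changes as an interaction over all 12. Calls are at a Benjamini-Hochberg adjusted p under 0.01. DESeq2 1.42.0, other scalings and filters, a replicate block, other thresholds and leaving out each library were alternatives. The scripts were tested on simulated data. The comparison, its gene lists and the rules for named genes were chosen with earlier results of these data known. The rules name the 10 largest called increases and decreases (at least 10 CPM in the higher group, groups apart), up to 3 called members of each list with the largest change (at least 5 CPM), the 6 largest called differences in each direction (at least 10 CPM), PRMT5, and the highest members of the lists of other cell types. Promoters are those of the RefSeq table for GRCh38.p14. A few members of the lists are counted in them but not reported here by name.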

Additional observations from a re-analysis of the deposited data

Results flagged for a closer look

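The change from day 0 to day 5 differed between LLY-283 and vehicle, by edgeR's test of the difference itself, for the 12 genes below, which are the largest called differences in each direction. On the log2 scale the change with LLY-283 was above that in vehicle by 2.70 for MAOB, 2.02 for TLL1, 1.91 for COL9A1, 1.66 for POSTN, 1.59 for ITGA10 and 1.57 for MATN2. It was below that in vehicle for VASH2 at -1.03, ACAT2 at -0.95, NGFR at -0.95, ZSCAN5A at -0.89, MT1X at -0.89 and ZIK1 at -0.81. Without vehicle day 5 repeat 3, which stood apart in COL1A1 and FN1, the differences ranged from 1.53 for ITGA10 to 2.64 for MAOB on the positive side, and from -1.08 for VASH2 to -0.81 for ZIK1 on the negative side, and all 12 were still called.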

How the results depend on the processing

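With a 2-fold minimum, 816 genes were called with LLY-283 (464 higher, 352 lower), 767 in vehicle (207 higher, 560 lower) and 150 for the difference (134 positive, 16 negative). At an adjusted p under 0.05 the difference had 4452 calls, 2113 positive and 2339 negative. With DESeq2, LLY-283 had 6069 calls, 3178 higher and 2891 lower. Leaving out 1 library gave 6389 to 7233 calls with LLY-283 (3451 to 3750 higher, 2883 to 3483 lower), 5624 to 6114 in vehicle (3303 to 3653 higher, 2232 to 2567 lower) and 2126 to 3000 for the difference (940 to 1272 positive, 1143 to 1728 negative). Whether repeat numbers pair the libraries was not settled. Same-numbered LLY-283 libraries correlated at 0.17, 0.07 and 0.003 in their deviations, and not every library correlated best with its own number. With so few libraries in a group this check cannot exclude a pairing. With a replicate block, 7918, 6490 and 2435 genes were called with LLY-283, in vehicle and for the difference. PRMT5 in vehicle turned to -0.022 with library size alone, where it was not called, and the median of the hypoxia list with LLY-283 turned to 0.22 with at least 10 counts in every library, where fewer genes were tested. Among the named genes with LLY-283, 1365 values under the alternatives kept their direction and side of the threshold and 25 kept the direction but lost the call, for ELAVL4, SMAD6, MT-ND1, MT-ND2, PECAM1, POSTN and ITGA10. In vehicle 9 did so, for VASH2 and ACAT2, and for the difference 234 values kept direction and side of the threshold, for the 12 genes of largest difference and PRMT5. Of 37 other genes named as called for the difference, 26 kept the call under all 18 alternatives and 11 lost it under at least 1, with 0 reversed. These were KCNJ10, CDKN2B, CCND3, RB1, RBL1, TM7SF2, MYC, SOX6, BCAN, OLIG2 and NDRG2. The causes were not tested. Depth limits genes under 1 CPM, where a library holds about 20 counts or fewer.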

Other observations

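At an adjusted p under 0.01 with no fold minimum, long non-coding RNAs were called less often than all genes. This was so with LLY-283, in vehicle and for the difference, when level was not matched. With LLY-283, 420 of 2548 were at 5 CPM or more, against 10810 of 13362 protein-coding genes. The part of level in the calls was not tested. Of 2548 tested with LLY-283, 199 (7.81%) were called higher and 226 (8.87%) lower, against 22.9% and 19.5% of all genes. Their median was -0.06. In vehicle 72 of 2466 (2.92%) were called higher and 382 (15.5%) lower, against 22.2% and 16.7% of all genes. Their median in vehicle was -0.32. For the difference 78 of 2964 (2.63%) were called positive and 8 (0.27%) negative, against 6.78% and 8.15% of all genes. The median difference was 0.28. With a 2-fold minimum, 71 of 2548 were called higher and 69 lower with LLY-283, against 464 and 352 of 17341 genes. In vehicle these counts were 26 and 165 of 2466, against 207 and 560 of 17106 genes. For the difference, 39 of 2964 were positive and 3 negative, against 134 and 16 of 18369 genes. Genes of either class moved with level. Under 1 CPM, the median difference was 0.34 for protein-coding genes and 0.32 for long non-coding RNAs, and at 5 CPM or more it was -0.03 and 0.15. The day 5 vehicle libraries had totals of 13835205 to 16691287 counts, under those of the other 9 libraries of days 0 and 5, and the part of depth in these values was not tested.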
